A study of Hordeum vulgare with 12 samples.

Results

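BM1, VRT2 and BM10 are the 3 barley (Hordeum vulgare) MADS-box genes of the Short Vegetative Phase (SVP) kind. They were taken by identifier, as HORVU4Hr1G077850 on chromosome 4H, HORVU7Hr1G036130 on 7H and HORVU6Hr1G077300 on 6H. All 3 were found among the 29014 gene identifiers of the deposited table, and the rule that picks them uses no measured value. The names come from the request for this description, since neither the table nor the reference table pairs identifiers with names. RNA-seq was made from whole inflorescences of the cultivar Golden Promise, a spring barley used widely for transformation. The groups were wild type (WT) and mutant plants, each at the stages W2.0 and W3.5, with 3 libraries per group and 15 to 20 spikes pooled per library. W is read here as the Waddington scale of spike development, as is usual in barley, on which W2.0 is the double ridge stage and W3.5 lies in early floret formation. The text of the series gives W3.0 where the sample labels give W3.5, and the labels were followed. The title of the series speaks of FASCIATED EAR genes, but none of the texts at hand names the mutated gene, so its own level was not checked. The names of the mutant columns and libraries begin with F4, which the labels do not explain. Growth conditions were described as normal for all plants.

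SVP-like proteins are MADS-domain transcription factors that bind DNA as dimers with other MADS proteins. In Arabidopsis, SVP represses flowering in the vegetative phase and, with related factors, keeps floral organ genes off in the youngest floral meristems. In barley, BM1 and BM10 are expressed mainly in vegetative tissue and delay or disturb spike development when overexpressed. In wheat, VRT2 and its SVP relatives act in the transition of the shoot apex to an inflorescence and are turned down as spikelets form florets.

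The table holds 1 value per group and gene, which is the authors' mean over 3 libraries in FPKM, the reads per kilobase of gene, scaled to the depth of each library. Library values of these 3 genes were not worked out. That would need the transcript lengths, which were not known. At these levels many combinations of whole reads could also give the same mean, though they were not counted. No SD, standard error or test is therefore given for the 3 genes. It is unknown whether the libraries of different groups overlapped or whether 1 library carried a high mean, such as that of the W2.0 mutant. All values below are group means without a replicate check. Depth, worked out from the spacing of low values within a limited search range, was 63298000 to 75896500 reads per library. True depths 2-fold larger, outside that range, could have given the same values, which was not tested. If the depths found hold, each kilobase of transcript stands for 1376 to 5265 reads per library at the members' levels. The counting error of a group mean is then 0.816% to 1.53% for a transcript of 1 kb. That error covers counting only and leaves out the spread between pooled spikes. In tissue of many cell types, fewer cells that express a gene and less RNA per cell cannot be told apart.

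BM1 was the member with the widest range of levels. At W2.0 its mean was 47.8 FPKM in WT plants and 69.4 FPKM in mutant plants. At W3.5 the WT mean was 20.7 FPKM and the mutant mean 26.2 FPKM. Both W2.0 means thus lay above both W3.5 means, and within each stage the mutant was the higher. From the highest group to the lowest the ratio was 3.36, and the neighbouring steps in that order were 1.45 (mutant over WT at W2.0), 1.82 (WT at W2.0 over the mutant at W3.5) and 1.27 (mutant over WT at W3.5). Among the 29014 identifiers, BM1 ranked 1760th from the top in the mutant at W2.0 and 6288th in WT at W3.5.

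VRT2 had its lowest mean in WT at W2.0, at 27.7 FPKM. The mutant at the same stage had the highest, at 52.7 FPKM. At W3.5 the WT mean of VRT2 was 35.8 FPKM and its mutant mean 39.1 FPKM. The W3.5 means of both genotypes lay between the W2.0 means, and they differed from each other by a ratio of 1.09, the smallest step between neighbouring groups of any of the 3 genes.

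BM10 showed the same order of groups as VRT2. At W2.0 its means were 35.7 FPKM in WT and 61.4 FPKM in mutant plants, and at W3.5 they were 40.4 and 48.3 FPKM. The highest mean was 1.72 times the lowest, against 1.90 for VRT2. Unlike BM1, neither gene separated the stages, since the W2.0 groups held both the lowest mean (WT) and the highest (mutant). All 3 members were highest in the W2.0 mutant, as were 22.7% of the 19367 genes that reached 1 FPKM in at least 1 group.

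**Figure D1:**
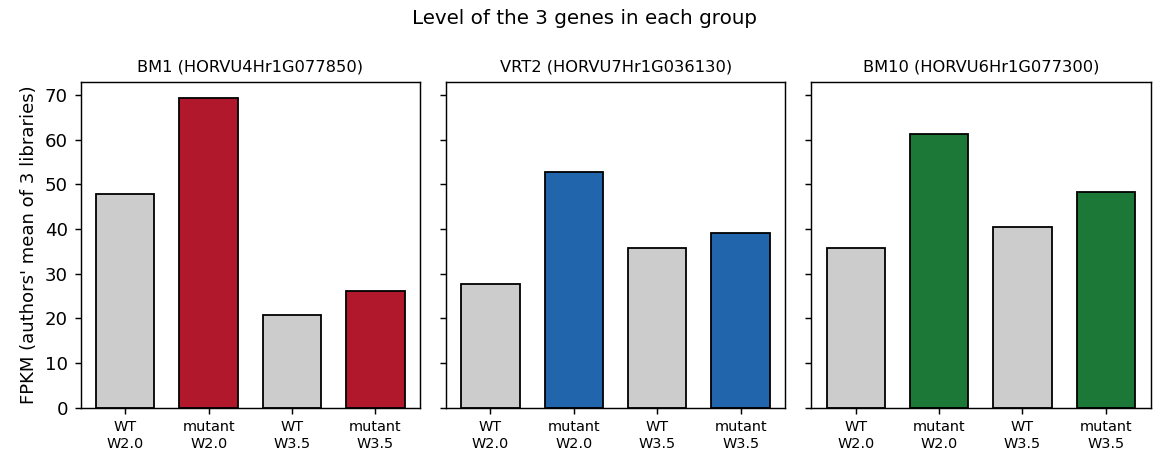
Level of BM1, VRT2 and BM10 in FPKM in the 4 groups; each bar is the authors' mean of 3 libraries, grey for WT and coloured for the mutant, with no error bar because the table gives 1 value per group. BM1 is high at W2.0 in both genotypes, while VRT2 and BM10 are lowest in WT at W2.0 (27.7 and 35.7 FPKM) and highest in the mutant at W2.0 (52.7 and 61.4 FPKM).

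The genotype comparison at W2.0 asked whether these genes differed between mutant and WT as spikelet primordia first appear. All 3 means were higher in the mutant. On the log2(FPKM + 1) scale the difference was 0.90 for VRT2, 0.77 for BM10 and 0.53 for BM1, which are ratios of the means of 1.90, 1.72 and 1.45. No member reached 2-fold (2.56% of the 19367 genes at 1 FPKM or more did, in the direction of a higher mutant mean). VRT2 and BM10 passed 1.5-fold, as did 6.86% of all genes. A difference at least as large in the same direction was held by 3.18% of all genes for VRT2, 4.38% for BM10 and 8.12% for BM1.

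At W3.5 the mutant means were again the higher for all 3 genes, by smaller amounts. The log2 difference was 0.33 for BM1, 0.25 for BM10 and 0.12 for VRT2. None passed 1.5-fold, where 4.64% of all genes did in the same direction. Differences as large were common, being held by 10.2% of genes for BM1, 14.0% for BM10 and 25.0% for VRT2. VRT2 had the largest genotype difference of the 3 at W2.0 and the smallest at W3.5. A mutant mean above WT at both stages, which all 3 members had, was found in 23.9% of all genes. A mutant excess at both stages that was smaller at W3.5, again found in all 3, was found in 14.0%.

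**Figure D2:**
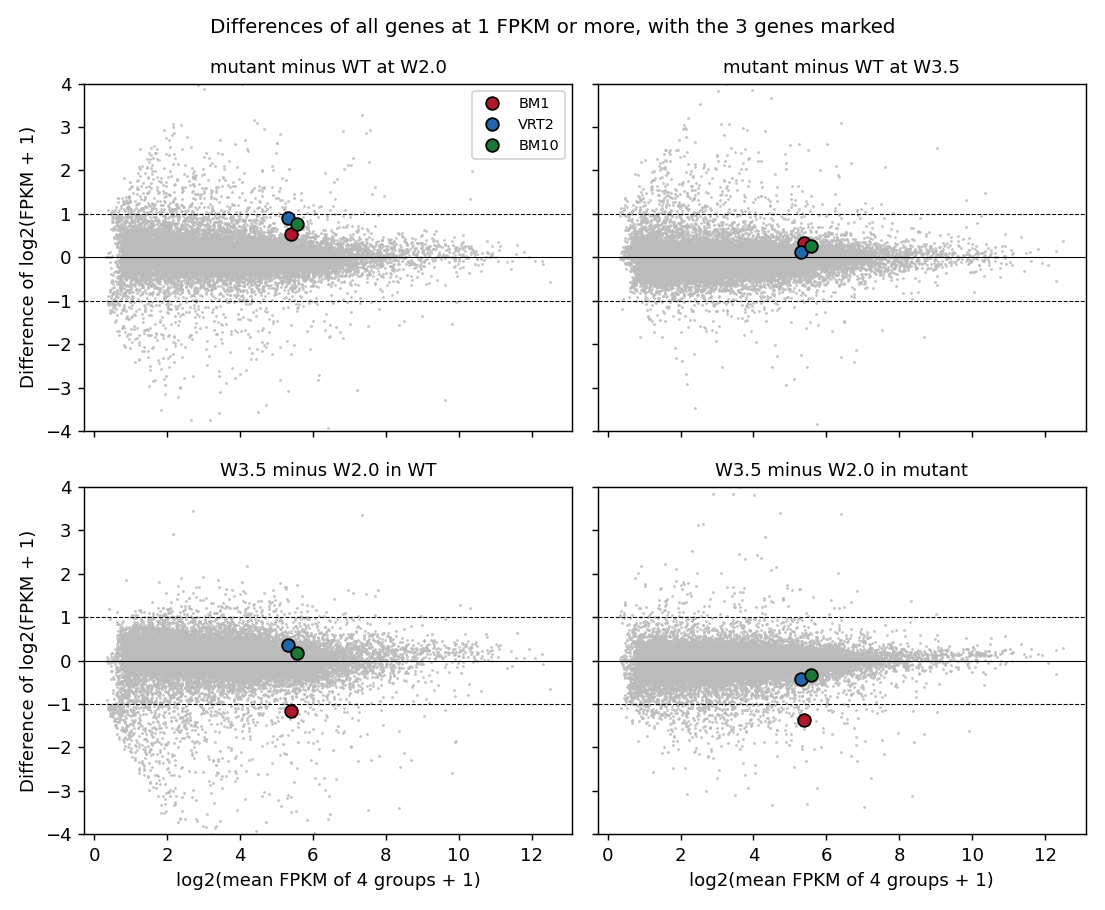
Difference of log2(FPKM + 1) between 2 group means (vertical axis) against log2 of the mean FPKM of the 4 groups plus 1 (horizontal axis) for the 19367 genes at 1 FPKM or more, in grey, with BM1, VRT2 and BM10 marked and dashed lines at a 2-fold difference; the vertical axis stops at 4 in both directions, which leaves out 3 to 19 genes per panel. BM1 lies below the lower dashed line in both stage panels, and no member passes a dashed line in a genotype panel.

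The stage comparison asked how the genes differed between W2.0 and W3.5 within a genotype. BM1 was lower at W3.5 in both. In WT its log2 difference was -1.17, a mean 2.31 times lower, and 4.07% of all genes were at least 2-fold lower. In the mutant it was -1.37, a mean 2.65 times lower, against 2.46% of all genes past 2-fold. At least as large a difference downward was held by 3.22% of genes in WT and 0.986% in the mutant. BM1 was at least 2-fold lower in both genotypes, which held for 166 genes (0.857%). The WT and mutant stage comparisons use different libraries.

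VRT2 and BM10 had stage differences of opposite sign in the genotypes. The VRT2 mean was higher at W3.5 in WT, by 0.36 on the log2 scale, and lower at W3.5 in the mutant, with a difference of -0.42. For BM10 the differences were 0.17 in WT and -0.34 in the mutant. Neither gene passed 1.5-fold in either genotype, where 6.18% of all genes were at least 1.5-fold higher at W3.5 in WT and 6.98% at least 1.5-fold lower in the mutant. The combination of a higher mean in WT and a lower one in the mutant was found in 25.9% of all genes. The low WT mean of VRT2 at W2.0 enters both its genotype difference at W2.0 and its stage difference in WT, so these are not separate observations. The same holds for BM10. The mutant mean at W2.0, the highest of the 4 groups for all 3 members, likewise enters both the genotype difference at W2.0 and the stage difference in the mutant.

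**Figure D3:**
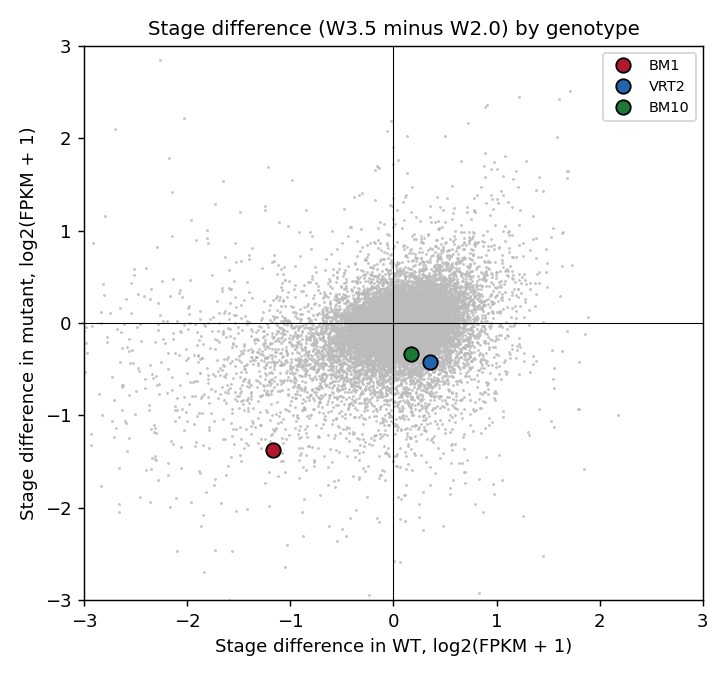
Stage difference (W3.5 minus W2.0) of log2(FPKM + 1) in WT (horizontal axis) and in the mutant (vertical axis) for genes at 1 FPKM or more, in grey, with the 3 members marked; both axes stop at 3 in both directions, which leaves out 94 genes. BM1 lies at -1.17 and -1.37, negative in both genotypes, while VRT2 and BM10 lie to the right of 0 in WT and below 0 in the mutant.

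The interaction, the genotype difference at W3.5 minus that at W2.0, was negative for all 3 genes. This restates the smaller mutant excess at W3.5 given above. The median interaction of all 19367 genes was also negative, at -0.068, so most genes shared the sign. It was -0.78 for VRT2, -0.51 for BM10 and -0.20 for BM1. VRT2 alone of the 3 passed 1.5-fold, as did 10.2% of all genes in this direction. Values at least as low were held by 5.69% of genes for VRT2, 12.8% for BM10 and 34.8% for BM1. With no library values, these interactions could not be tested.

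Because FPKM is scaled by length, the members' levels can be set against each other, but only roughly. The shares depend on the annotation and on how reads matching related genes were counted, which are unknown. The summed level of the 3 genes at W2.0 was 111.2 FPKM in WT and 183.4 FPKM in mutant plants. At W3.5 the sums were 96.9 and 113.6 FPKM. BM1 made up 43.0% of this sum in WT at W2.0 and 37.8% in the mutant at W2.0, and was the most abundant of the 3 in both groups. At W3.5 it made up 21.3% in WT and 23.1% in the mutant and was the least abundant. BM10 held 32.1% and 33.5% of the sum in WT and the mutant at W2.0, and 41.7% and 42.6% at W3.5, where it was the most abundant. VRT2 held 24.9% and 28.7% at W2.0, the smallest share in both genotypes, and 36.9% and 34.4% at W3.5. BM1 thus changed from the first to the last place between the stages in both genotypes, while BM10 stayed above VRT2 in all 4 groups.

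**Figure D4:**
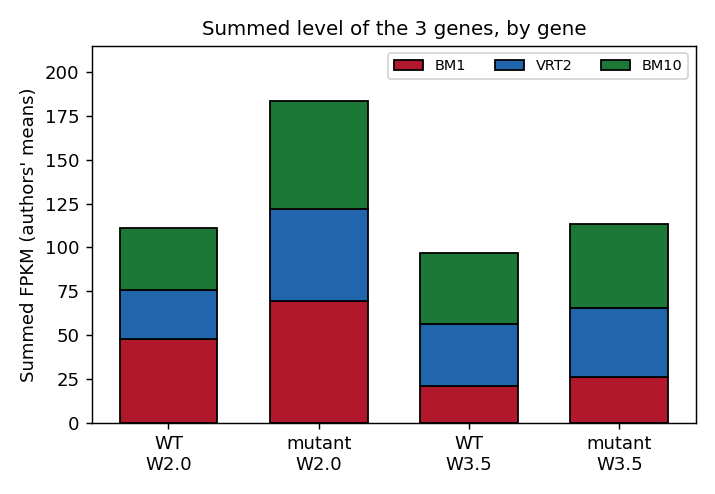
Summed FPKM of BM1, VRT2 and BM10 in each group, stacked by gene, from the authors' means of 3 libraries. The sum is highest in the mutant at W2.0 (183.4 FPKM), and the BM1 part is the largest of the 3 at W2.0 and the smallest at W3.5 in both genotypes.

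Likeness of profiles was measured over the 4 group means as the root mean square (RMS) difference of log2(FPKM + 1) after each gene was centred on its own mean. With 4 points that share their libraries, this describes the table and is no test. VRT2 and BM10 differed by 0.07. Of the 5032 identifiers with a mean level within 2-fold of VRT2, 4 lay nearer to VRT2 than BM10 did. Of the 4435 within 2-fold of BM10, 6 lay nearer to BM10 than VRT2 did. BM1 differed from VRT2 by 0.64 and from BM10 by 0.60, and 27.6% and 16.2% of the 4867 identifiers at its level lay nearer to it.

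The identifiers most like each member are not annotated in the sources used here. HORVU3Hr1G087050 on 3H was nearest to BM1, at an RMS difference of 0.118, with 40.6 and 58.0 FPKM in WT and the mutant at W2.0 and 18.5 and 27.1 FPKM at W3.5. HORVU3Hr1G022260 and HORVU2Hr1G114220 followed at 0.188 and 0.221, and no identifier at the level of BM1 lay within 0.1. Nearest to VRT2 were HORVU1Hr1G022900 (0.052), HORVU2Hr1G036280 (0.059) and HORVU2Hr1G101750 (0.064), among 7 identifiers within 0.1. Nearest to BM10 were HORVU7Hr1G052770 (0.046), HORVU1Hr1G016200 (0.061) and HORVU4Hr1G014270 (0.064), among 10 within 0.1. The median RMS difference to identifiers at the member's level was 0.35 for VRT2, 0.32 for BM10 and 0.69 for BM1. With its wider range of levels, BM1 thus lay farther from identifiers in general, and had fewer within the fixed 0.1. Its order of groups, with both W2.0 groups first and the mutant first within each stage, was shared by 4.05% of all genes at 1 FPKM or more, and the order of VRT2 and BM10 by 3.89%.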

How the data were processed

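RNA was sequenced from 12 inflorescence samples in 4 groups of 3, grouped by title. FastQC, HISAT2 2.0.0 and HTSeq 0.11.2 appear in the submitters' processing notes. No source used here gives the genome build, the annotation or how multiply matching reads were counted, so reads of related genes could sit in a member's value. The library kit was TruSeq RNA version 2, per the labels' protocols. The deposited table has 4 columns of FPKM, 1 per group, which the authors averaged over 3 libraries. No header or label states this; it was read from the values. Ratios of low values between any pair of columns formed 9 clusters, as 3 libraries against 3 give. The spacing of low values gave the depth of each library within a limited search range (search step 250 reads). Multiples of these depths outside that range were not tested. The depths found predict 54 ratios, and 53 were found. The depths were chosen among candidates to give the most such ratios, so this count is no separate check. On columns simulated with longer genes and no spread beyond counting, 0 of 12 depths came within 1000 reads, and 0 of 54 ratios were found. A simulation with short genes and a wide spread, set up after that failure, gave 12 of 12 depths and 39 of 54 ratios. The simulated depths lay inside the search range.

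Differences were taken on log2(FPKM + 1) with python 3.11.15, numpy 2.4.6 and pandas 2.3.3, over the 19367 genes at 1 FPKM or more in a group; fold differences on this scale understate those of low genes. The plan named a model over libraries where library values could be had. They were not worked out for these genes, so nothing was tested. The text names the members, the 3 identifiers nearest in profile to each within 2-fold of its level, and the next identifier on each side. Alternatives were other pseudocounts, scalings and level filters. Planned lists of MADS-box, meristem and leaf genes were not described, because 0 genes of the reference table could be linked to these identifiers; the tissue was not checked against markers and no sequence is shown for the same reason. The members and lists were chosen with earlier results of these data known.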

Additional observations from a re-analysis of the deposited data

How the results depend on the processing

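All 15 differences of the members kept their direction under the 4 alternatives run, which were pseudocounts of 0.1 and 5, upper-quartile scaling, and setting the median difference of all genes to 0. A change of pseudocount cannot reverse the sign of a genotype or stage difference, so that part was fixed in advance. The lowest mean of any member was 20.7 FPKM, where these pseudocounts also change the size of a difference little. The medians of all genes lay between -0.068 and 0.058. Each was smaller in size than every member difference, so subtracting them could not reverse a direction either. Of the 60 values under the alternatives, 59 stayed within 1.5 times the reported one. The exception was the BM1 interaction, which was -0.13 with the median of all genes set to 0, against -0.20; that median was -0.068. The share of all genes at least 2-fold apart in either direction depended on the pseudocount. With a pseudocount of 0.1 in place of 1 it moved from 4.46% to 7.35% and from 2.80% to 5.98% for the genotypes at W2.0 and W3.5, from 5.15% to 8.58% and from 3.20% to 6.24% for the stages in WT and the mutant, and from 6.14% to 10.3% for the interaction, since a smaller pseudocount enlarges differences of low genes. The other 15 values of these shares stayed within 1.5 times. For the genotype and stage shares without a filter on level, this was fixed in advance. A gene under 1 FPKM in every group cannot be 2-fold apart on log2(FPKM + 1). Dropping the filter thus only raised the number of genes from 19367 to 29014, as in the move from 4.46% to 2.98% for the genotypes at W2.0. Leaving out single libraries, limma and limma-voom were not run, because the table gives 1 mean per group. No paired analysis was possible because each column is a mean over the libraries of its group. Counting error is small at these levels, and the spread between libraries is unknown.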

Other observations

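The next listed identifiers on each side of the members are given by their group means, with no replicate check. Beside BM1 on 4H, HORVU4Hr1G077840 had W2.0 means of 18.0 FPKM (WT) and 15.8 FPKM (mutant), and W3.5 means of 18.0 and 16.4 FPKM. HORVU4Hr1G077870, on the other side, was at most 0.0418 FPKM in any group. Beside VRT2 on 7H, HORVU7Hr1G036110 was lower in the mutant at both stages, with 45.6 (WT) and 41.0 FPKM (mutant) at W2.0 and 49.9 and 45.8 FPKM at W3.5, while HORVU7Hr1G036140 was at most 0.352 FPKM. Beside BM10 on 6H, HORVU6Hr1G077290 was higher in the mutant at both stages, with 18.6 and 21.5 FPKM at W2.0 and 24.5 and 29.4 FPKM at W3.5. HORVU6Hr1G077320 was lower in the mutant, with 17.4 and 14.0 FPKM at W2.0 and 17.7 and 12.6 FPKM at W3.5. Of these 6 identifiers, HORVU4Hr1G077870 and HORVU7Hr1G036140, both under 0.5 FPKM, had their highest level of the 4 groups in the mutant at W2.0. Among the 19367 genes at 1 FPKM or more, 22.7% did, but HORVU4Hr1G077870 and HORVU7Hr1G036140 are too low to be in that set. The other neighbours are in it and had their highest level in another group. So few identifiers cannot show whether the members differ from their neighbours.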
